A study of Mus musculus with 2 samples.

Results

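Open chromatin was compared between control and Brg1-deficient cells of the developing mouse kidney, and the regions described here are the control peaks at the ends of protein-coding genes that had no counterpart without Brg1. A peak of the control list was taken when it lay on chromosomes 1 to 19 or X, within 1000 bp of either annotated end of a protein-coding gene, and shared not even 1 bp with a cKO peak. This held for 939 of 15944 control peaks beside protein-coding genes (5.89%, exact 95% interval 5.53 to 6.27%), out of 77529 control peaks in all, and these 939 are called unmatched peaks below. Over the whole control list 25.9% of peaks had no counterpart. The regions were chosen by their overlap between the 2 lists, and the strength values and these shares are tied to that choice, so they are given as a description.

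Both libraries were made by ATAC-seq, in which a transposase inserts sequencing adapters into accessible DNA, from 50000 sorted tdTomato-positive cells per reaction from kidneys at E18.5, late in gestation. The control library carries the genotype label WT control and the other the label Brg1cKO/cKO, written cKO here. Brg1 is the protein made from the gene Smarca4. The series text calls both populations Wnt4-lineage cells, whereas the cell type label of the control library reads only control. The labels used here name neither the Cre driver nor the number of animals pooled. Each genotype had 1 library, so the spread between replicates is unknown and the genotypes were not tested against each other. Depth is unknown because the lists hold no read counts, and it cannot be told apart from genotype here. Intervals throughout are 95% intervals that cover counting error over peaks of these libraries, and they were not adjusted for the 24 measures compared. Wnt4, the gene that defines the lineage, had 2 control peaks at its ends, and 1 of them was found in the cKO list. In sorted cells measured in bulk, fewer cells of a type and less open chromatin per cell cannot be told apart, and a weak region may be missing from a list while still open.

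Brg1 is an ATPase of the BAF complex, which slides and evicts nucleosomes and so exposes DNA to transcription factors. Promoters fall broadly into a class rich in CpG dinucleotides, typical of widely expressed genes and often free of nucleosomes by their own sequence, and a class poor in CpG, typical of tissue-restricted genes. The 3' end of a gene is not a promoter, and open chromatin there may be an enhancer, an antisense start or a neighbouring element.

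The sequences below show the DNA just before the start of genes whose start lay inside an unmatched peak, since base composition was a measure on which unmatched and found peaks could be compared without using the overlap. They are the most significant such peaks for which at least 150 bases before the start lay outside any protein-coding gene. Each run stops short of the start where a gene model begins. All were read from RefSeq promoters on GRCm38.p6 (mm10), written 5′ to 3′ on the strand of the gene, and capitals mark each CG dinucleotide.
Ceacam1, a cell adhesion gene, chr7:25477648-25477875, minus strand: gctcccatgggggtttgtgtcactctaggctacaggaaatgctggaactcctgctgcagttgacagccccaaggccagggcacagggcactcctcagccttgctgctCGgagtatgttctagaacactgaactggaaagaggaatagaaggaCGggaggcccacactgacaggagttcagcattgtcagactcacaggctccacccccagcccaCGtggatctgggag
Trim12a, a gene of the tripartite motif family, chr7:104315559-104315745, minus strand: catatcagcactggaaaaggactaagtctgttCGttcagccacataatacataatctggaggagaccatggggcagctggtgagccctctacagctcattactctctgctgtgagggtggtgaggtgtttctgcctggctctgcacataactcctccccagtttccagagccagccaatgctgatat
Igfals, which encodes the acid-labile subunit that holds insulin-like growth factors in serum, chr17:24877594-24877843, plus strand: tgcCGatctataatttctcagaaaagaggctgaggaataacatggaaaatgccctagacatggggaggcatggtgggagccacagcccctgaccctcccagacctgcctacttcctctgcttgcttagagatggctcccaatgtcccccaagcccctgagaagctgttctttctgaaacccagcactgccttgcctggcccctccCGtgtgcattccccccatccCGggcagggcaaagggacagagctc
Zfp951, a zinc finger gene, chr5:104860158-104860318, minus strand: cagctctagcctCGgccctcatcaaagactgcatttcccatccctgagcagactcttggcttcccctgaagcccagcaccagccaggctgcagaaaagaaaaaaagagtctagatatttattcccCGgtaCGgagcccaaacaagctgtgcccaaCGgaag
Opn4, the melanopsin gene, chr14:34600143-34600392, minus strand: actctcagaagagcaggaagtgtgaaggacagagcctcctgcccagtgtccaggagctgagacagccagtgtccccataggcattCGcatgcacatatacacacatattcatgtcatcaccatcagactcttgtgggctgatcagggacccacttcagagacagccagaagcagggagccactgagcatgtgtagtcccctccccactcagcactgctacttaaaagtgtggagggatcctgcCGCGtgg
For the first 3, the start-covering control peak nearest in significance that was found in the cKO list is set beside them.
Plin5, a lipid droplet protein gene, beside Ceacam1, chr17:56117607-56117798, minus strand: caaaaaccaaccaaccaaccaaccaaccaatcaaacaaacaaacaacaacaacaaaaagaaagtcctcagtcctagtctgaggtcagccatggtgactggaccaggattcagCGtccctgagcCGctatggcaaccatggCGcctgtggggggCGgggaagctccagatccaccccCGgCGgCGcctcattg
Spef2, a sperm flagellum gene, beside Trim12a, chr15:9748869-9749118, minus strand: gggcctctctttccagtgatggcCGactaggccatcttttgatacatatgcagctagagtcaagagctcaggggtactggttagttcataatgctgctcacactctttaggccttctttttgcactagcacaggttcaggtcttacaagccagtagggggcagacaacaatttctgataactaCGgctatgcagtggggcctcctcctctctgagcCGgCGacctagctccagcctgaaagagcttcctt
Frem3, an extracellular matrix gene, beside Igfals, chr8:80610789-80611038, plus strand: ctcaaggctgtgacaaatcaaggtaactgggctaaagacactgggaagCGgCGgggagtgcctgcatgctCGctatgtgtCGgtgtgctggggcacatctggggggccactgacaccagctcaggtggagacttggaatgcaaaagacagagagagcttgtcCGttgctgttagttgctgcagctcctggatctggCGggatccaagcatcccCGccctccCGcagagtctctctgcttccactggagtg
The 5 runs from unmatched peaks held 3 CG in 228 bases at Ceacam1, 1 in 187 at Trim12a, 3 in 250 at Igfals, 4 in 161 at Zfp951 and 3 in 250 at Opn4. The 3 runs from found peaks held 7 in 192 at Plin5, 4 in 250 at Spef2 and 8 in 250 at Frem3. These few runs illustrate a comparison that was made over all covered starts, given below.

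Unmatched peaks were weak and narrow. Strength was ranked by the deposited -log10 p within the control list, in 10 classes of equal size from the weakest (1) to the most significant (10). The unmatched peaks had a median -log10 p of 4.73 (3.67 to 7.50), against 9.79 for the 15005 found peaks beside genes, and a median width of 611 bp against 1746 bp. Classes 1 to 5 held 857 of the 939 (91.3%), and classes 9 and 10, which hold 66.4% of all gene-end peaks, held none. From class 1 to class 8 the unmatched share fell from 55.7% of 463 peaks to 0.475% of 1474. In each of these classes the share was lower beside genes than among the other control peaks, at 30.5% against 38.1% in class 4 for example. The count of 0 unmatched among the 6653 gene-end peaks of class 10 allows a share of up to 0.0554%.

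Unmatched peaks lay at 3' ends more often than found peaks of equal strength. The strand, and with it the start and 3' end, was known from the promoter table for every gene end beside 720 of the 939. Of these 720, 433 lay beside 3' ends only (60.1%, 56.5 to 63.7%) and 287 had a start in the window. Found peaks weighted to the same strength classes lay beside 3' ends only in 45.8% of cases, a difference of 14.3 points (9.49 to 19.1), larger than its counting error. Within these classes of p the unmatched peaks still had less area, over all 939 a geometric mean of 353 against 460. With classes by peak area in place of p the difference at 3' ends was 11.9 points (6.78 to 17.1). Among all 11564 found peaks of known strand, strong ones included, 12.9% lay beside 3' ends only.

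**Figure D1:**
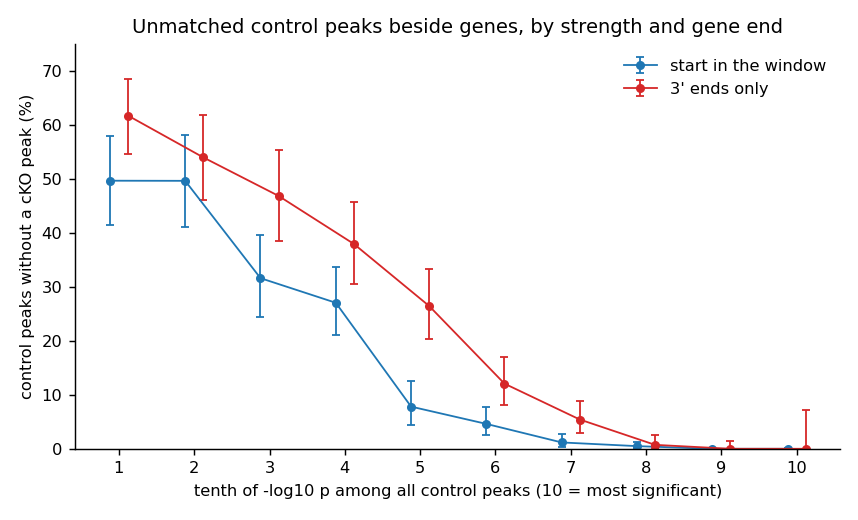
Percentage of control peaks beside protein-coding genes that had no cKO peak, by strength class of the control list (1 weakest, 10 most significant), for peaks with a gene start in the 1000 bp window (blue) and peaks beside 3' ends only (red), with exact 95% intervals. The red points lie above the blue ones in classes 1 to 8, at 26.5% against 7.81% in class 5, and both are at 0 in classes 9 and 10.

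In points the separation was widest in class 5, and it did not change evenly with strength, at 54.0% against 49.6% in class 2. In class 1, 121 of 196 peaks at 3' ends were unmatched (61.7%, 54.5 to 68.6%) and 75 of 151 peaks near starts (49.7%, 41.4 to 57.9%), with intervals that overlapped. In class 5 it was 50 of 189 at 3' ends (26.5%, 20.3 to 33.3%) and 15 of 192 near starts (7.81%, 4.44 to 12.6%), with intervals apart. In class 7 it was 14 of 258 (5.43%) and 5 of 425 (1.18%, 0.383 to 2.72%). Among control peaks not beside protein-coding genes the share was 65.0% in class 1, 23.8% in class 5 and 8.18% in class 7. In classes 1 to 8 these shares were above those near starts, and in all of them but class 5 above those at 3' ends too. In class 8 it was 3.36% among these other peaks, 0.730% at 3' ends and 0.493% near starts. A higher share than near starts was thus not particular to 3' ends. In the other direction, 161 of 15112 cKO peaks beside genes had no control peak (1.07%). The cKO list was shorter, at 61210 peaks against 77529, so the 1.07% and the 5.89% are not alike in list length. With the control list cut to its 61210 most significant peaks the control share was 3.01%. Of the 161 cKO peaks 126 had known strand, and 80 of these lay beside 3' ends only (63.5%, 54.4 to 71.9%). This share was not matched on strength, and its interval overlaps that of the unmatched control peaks.

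Most genes with an unmatched peak at their 3' end had a peak at their start in both libraries. Of the 433 peaks beside 3' ends only, 194 lay inside the gene, 64 covered its end and 175 lay beyond it. At 340 of the 433 (78.5%, 74.3 to 82.3%) the start of the same gene had a control peak that was found in the cKO list. At 83 the start had no control peak, and at 10 it had control peaks of which none was found. A further annotated start away from the gene's end was not counted here, as at Gpr142, where an unmatched peak covered it (5.75). Among found 3' end peaks of equal strength 85.9% had such a found peak at the start, a difference of -7.37 points (-12.4 to -2.35). Start peaks were judged by the same overlap between the same libraries as the choice of regions, so this difference is a description.

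Examples at 3' ends came from genes of varied function. The most significant lay 684 bp outside Tnnc1, which encodes the troponin C of heart and slow muscle (chromosome 14, 31212413 to 31213039), at rank 5 by -log10 p among all unmatched peaks. The next lay 505 bp outside Aff1, a gene of the super elongation complex (chromosome 5, 103855827 to 103857154, -log10 p 6.96). A 1021 bp peak covered the end of Slc12a7, a potassium-chloride cotransporter gene (chromosome 13, 73815855 to 73816875, 6.61). A 949 bp peak lay inside the retinol dehydrogenase gene Rdh1 (chromosome 10, 127766409 to 127767357, 6.66), and the other control peak of Rdh1, over its start, was unmatched too. Others among the strongest lay at Serpinf1, which encodes the secreted pigment epithelium-derived factor (6.48), at the fatty acid transport gene Slc27a3 (6.45) and at Fbp1, a gluconeogenic enzyme gene of the proximal tubule (chromosome 13, 62863833 to 62864590, 6.35). Also in this group were peaks at Pex10 (6.57), Ccdc181 (6.51), Akap11 (6.36), Gm35549 (6.32) and Lrrc4 (6.32).

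**Figure D2:**
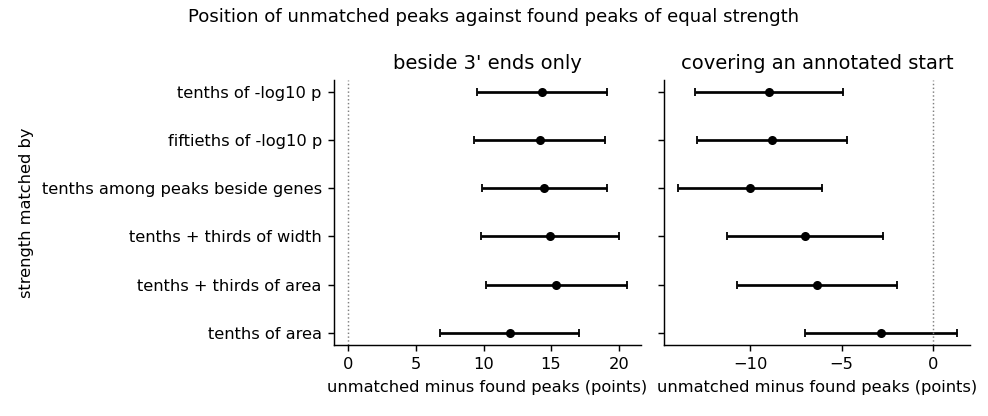
Difference in percentage points between unmatched peaks and found peaks, for lying beside 3' ends only (left) and covering an annotated start (right), under 6 ways of matching strength, with 95% intervals. The left differences run from 11.9 to 15.4 points with intervals above 0, and the right ones from -10.0 to -2.85, the last of which, with strength by area, has an interval that includes 0.

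Fewer unmatched peaks than found ones of equal p covered a transcription start itself. An annotated start lay inside 144 of the 720 peaks of known strand (20%), against 29.0% of found peaks in the same classes, a difference of -8.97 points (-13.0 to -4.90). Found peaks in those classes were wider, with a geometric mean of 780 bp against 611 bp. When classes were made by area the difference was -2.85 points (-6.99 to 1.30) and no longer beyond counting error, whereas with 3 width classes inside each strength class it was -7.01 (-11.3 to -2.72). In the classes by area it was the unmatched peaks that were wider, at 611 bp against 568 bp. The share that covered either end of a gene, 288 of 939 (30.7%), differed by -7.93 points (-11.9 to -3.96) with classes by p. This difference was within counting error with classes by area (0.352, -3.65 to 4.35), with width classes (-3.10, -7.12 to 0.913) and with classes of p and area together (-2.50, -6.64 to 1.64). Of unmatched peaks 43.1% lay wholly inside a gene, against 39.1% of matched found peaks (difference 4.05 points, -0.129 to 8.23). The interval included 0 here but not with classes made among gene-end peaks alone (5.41, 1.36 to 9.46).

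Covered starts were poor in CpG. Over all peaks, strand known at every end or not, 146 unmatched peaks held an annotated start, and the CpG observed/expected ratio of the 250 bases before it had a mean of 0.295, a median of 0.265 and a range from 0 to 1.10. Found peaks in the same strength classes had a mean of 0.403, so that the difference was -0.108 (-0.151 to -0.0640), and it was -0.0778 (-0.128 to -0.0274) with classes by area. The mean over all 21045 promoters of protein-coding genes in the table was 0.526. In counts, unmatched starts had 5.48 CG dinucleotides per 250 bases and matched found starts 8.55 (difference -3.07, -4.29 to -1.86). The GC content was 52.9% against 55.8% (difference -2.89 points, -4.55 to -1.24). With classes by area the CG count still differed (-2.09, -3.48 to -0.706), whereas the GC content differed by -1.46 points with an interval that included 0.

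**Figure D3:**
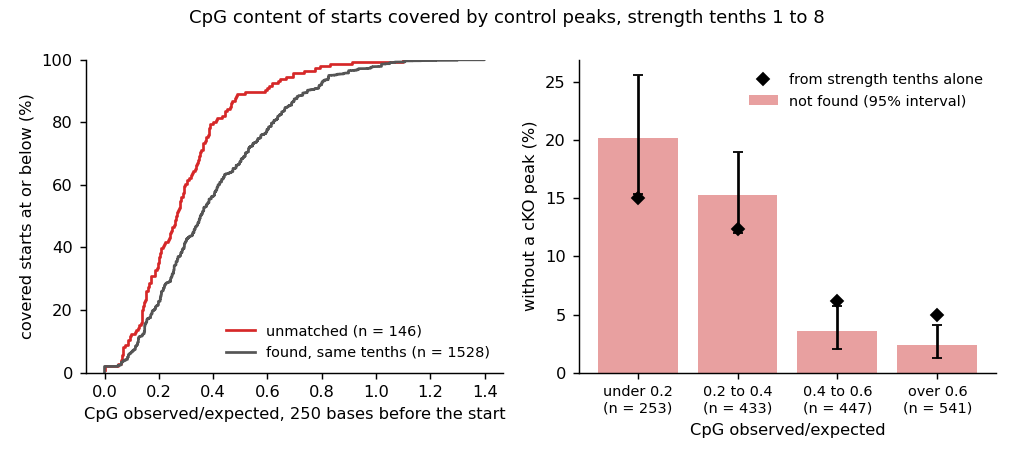
Left, cumulative percentage of covered starts by CpG observed/expected ratio for the 146 unmatched peaks (red) and for the 1528 found peaks of strength classes 1 to 8, weighted to the same classes (grey). Right, percentage of covered starts of these classes with no cKO peak by CpG ratio (bars, exact 95% intervals) and the percentage that the strength classes alone give (diamonds). The red curve rises earlier, and the bars fall from 20.2% to 2.40%.

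By CpG class, 51 of 253 covered starts with a ratio under 0.2 were unmatched (20.2%, 15.4 to 25.6%), where their strength classes alone gave 15.1%. Between 0.2 and 0.4 it was 66 of 433 (15.2%, against 12.4% from strength), between 0.4 and 0.6 16 of 447 (3.58%, against 6.15%) and above 0.6 13 of 541 (2.40%, 1.29 to 4.07%, against 4.95%). Thus 117 of the 146 had a ratio under 0.4, and 13 had one over 0.6, as did 69.9% of the found starts of all strengths.

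Motifs were searched on both strands of the 250 bases. The CCAAT box (CCAAT) was present in 50 of 146 unmatched starts (34.2%, against 27.0% of matched found starts and 35.6% of all promoters), the GC box (GGGCGG) in 38 (26.0%, against 34.9% and 43.1%) and the TEAD motif GGAATG in 24 (16.4%, against 9.74% and 11.6%). With strength classes by p the intervals of these differences included 0, the nearest being the GC box at -8.88 points (-18.3 to 0.528) and the TEAD motif at 6.70 (-0.281 to 13.7). In finer classes added after the data were seen, 3 intervals excluded 0, those of the TEAD motif (8.59, 2.23 to 14.9) and the GC box (-9.90, -19.7 to -0.118) by fiftieths of p, and that of the CCAAT box by classes of p and area together (12.3, 3.08 to 21.4). The TATA box (TATAAA) was found in 10 (6.85%, against 10.9% and 11.7%), the AP-1 motif TGANTCA in 11 (7.53%, against 6.48% and 6.17%) and the E-box CACGTG in 8 (5.48%, against 7.93% and 6.70%). The CRE motif TGACGTCA was in 2, the NRF1 motif and the HNF4 motif CAAAGTCCA in 1 each, and the HNF1 motif in 0, which allows a share of up to 2.49%. Of all promoters 1.94% held the CRE motif, 1.08% the NRF1 motif, 0.394% the HNF4 motif and 0.00475% the HNF1 motif.

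Among unmatched peaks over starts, R3hdml came first by significance, with a 1465 bp peak on chromosome 2 (163491122 to 163492586) at a -log10 p of 7.50, a CpG ratio of 0.153 and the nearest cKO peak 8769 bp away. Ceacam1 (7.14, CpG ratio 0.139) had a cKO peak 1371 bp away, and Trim12a (7.06, 0.0620) none within 36430 bp. Tspan8, a tetraspanin gene, had a peak at 6.91 with a ratio of 0.235. Igfals (6.74, 0.150), Zfp951 (6.38, 0.372) and Opn4 (6.38, 0.160) followed, with the nearest cKO peak 2800, 249520 and 14574 bp away. The remaining 3 of the first 10 were the predicted gene Gm50595 (5.95, 0.184), the somatostatin gene Sst (5.91, 0.599) and Ankrd1, an ankyrin repeat gene of stressed muscle and known YAP target (5.89, 0.362). In this group of 10, all had a ratio under 0.6.

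The 25 strongest unmatched peaks of any position had a -log10 p of 6.30 to 7.50, and 12 lay beside 3' ends only, 9 had a start in the window and 4 had an end of unknown strand. Besides those named above, they lay at Arfgef3 (6.76) and at the receptor gene Lifr, whose ligand LIF promotes nephron formation in culture (6.30). With unknown strand they lay at Sdhc, which encodes a subunit of succinate dehydrogenase (7.06), the predicted gene Gm40365 (6.77) and the macrophage genes Csf1r (6.48) and C1qa (6.44). The last pair mark macrophages rather than the nephron. Their control peaks, on chromosome 18 (61106483 to 61107310) and chromosome 4 (136897946 to 136898860), were the only gene-end peaks of each gene. Of 20 immune markers 9 had a control peak at an end, 11 peaks in all. Of these 11 peaks 3 were unmatched (27.3%, 6.02 to 61.0%, against 15.4% from strength), with an interval that held the percentage from strength. The third unmatched one lay inside Spi1, a transcription factor gene of myeloid cells (4.62), and the 8 found ones lay at C1qc, Fcgr1, Cd68, Cd74, Spi1, Coro1a and Lcp1. Ptprc, Adgre1, Itgam and Cx3cr1, all defining markers of leukocytes or macrophages, were among the 11 with no control peak at an end. The part of immune cells in these results was not tested.

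The unmatched peaks were spread over 964 genes. Of these 924 had 1 unmatched peak and 40 had 2, the most for any gene. At 343 genes every control peak at an end was unmatched, which is 2.32% of the 14786 protein-coding genes with such a peak, and at 324 of the 343 this was a single peak. At 9 of the 343 a cKO peak lay within 1000 bp of an end but overlapped none of the control peaks at the gene's ends. The other 621 genes had another end peak that overlapped a cKO peak, although at 4 of them no cKO peak itself lay within 1000 bp of an end. Among genes with 2, the highest summed -log10 p were at Rdh1 (11.5), Lax1, an adaptor gene of lymphocyte signalling (11.2), Syna (11.2), Tspan8 (11.1) and 9030025P20Rik (11.1), of which Syna kept another end peak. The 2 peaks of 9030025P20Rik also lie at an end of Gm3417. At Tspan8 the peaks of 1217 and 386 bp lay 227 bp apart, and the nearest cKO peak was 6952 bp from the smaller one.

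**Figure D4:**
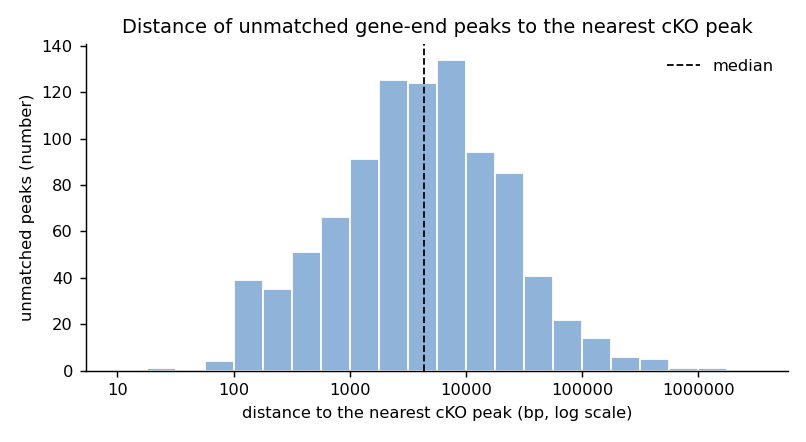
Number of unmatched peaks by distance to the nearest cKO peak, on a log scale, with the median as a dashed line. Most lay between 1000 and 100000 bp from a cKO peak, with a median of 4306 bp and 6 within 100 bp.

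The distance from unmatched peaks to a cKO peak is bounded by the rule, which leaves out any overlap. A cKO peak lay within 100 bp of 6 of the 939 (0.639%), within 1000 bp of 196 (20.9%) and within 10000 bp of 670 (71.4%). As background, another control peak lay within 1000 bp of 247 (26.3%). The gap to the nearest control peak had a median of 3026 bp and was never under 101 bp. The control peaks next to unmatched peaks were mostly found, 734 of 939 before and 735 of 939 after. Of the 939, 582 had found neighbours on both sides while 52 had none. The nearest control peak was found for 77.6% of unmatched peaks and for 87.0% of found peaks weighted to the same strength classes, or 86.5% when the strength of the neighbour was matched too. Without matching it was 78.4% of found peaks, a difference of -0.758 points (-3.50 to 1.99). This comparison uses the same libraries and overlap as the choice of regions and is a description. The nearest control peak was farther from unmatched peaks, at a geometric mean of 2895 bp against 1845 bp, a ratio of 1.57 on which the interval of the log10 difference (0.130 to 0.261) excluded 0. Genes beside them were 1.21 times as long (22473 against 18608 bp, log10 difference 0.0331 to 0.131).

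At the edges of the rule, the unmatched peaks nearest to a cKO peak lay 28 bp away at Mmp16, 75 bp at Dync1h1 and 93 bp at Ptgfr, and the found peaks with least overlap shared 22 bp at Ccdc51, 56 bp at Pip5k1a and 68 bp at Gsx2. The most distant unmatched peaks lay 999 bp from an end of Gsta2 and 996 bp from Cnih3 and Mark1. Unmatched control peaks up to 100 bp outside the window numbered 57, and those in its outermost 100 bp numbered 53.

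Genes of kidney cell types and pathways were read from 22 lists. Together their genes had 517 control peaks at gene ends, of which 47 were unmatched (9.09%, 6.76 to 11.9%), where the strength classes of these peaks gave 43.6. With the 1 bp overlap the exact interval of each list's share held the percentage given by strength. With 50% of the control peak covered this was so for 21 of the 22, podocyte genes being the exception.

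**Figure D5:**
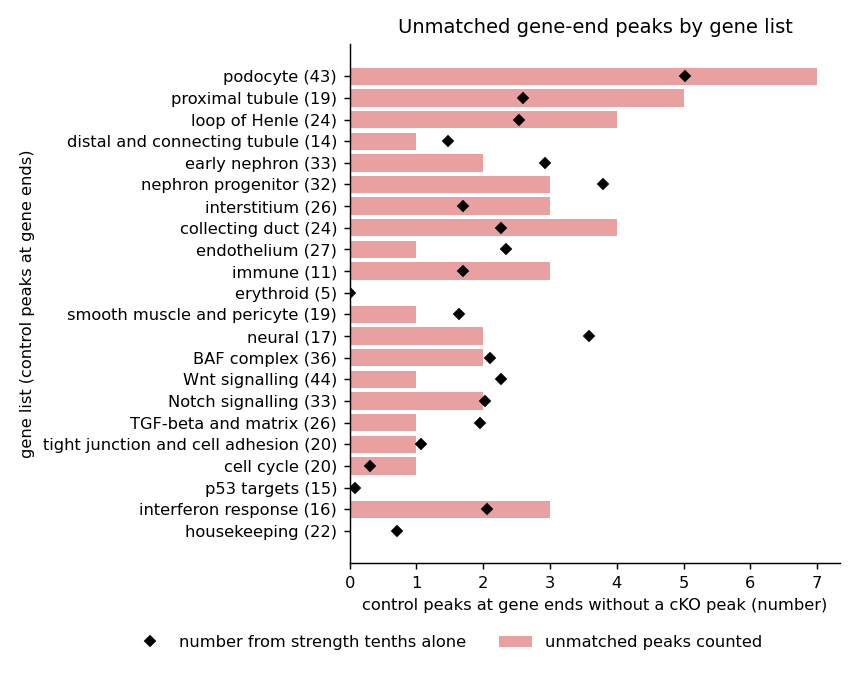
Number of unmatched control peaks at the ends of genes of each list (bars), with the number that strength classes alone give (diamonds), and in parentheses the control peaks at gene ends. Podocyte genes had 7 of 43 and proximal tubule genes 5 of 19, against 5.02 and 2.60 from strength.

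Proximal tubule genes had 5 unmatched peaks of 19 (26.3%, 9.15 to 51.2%, against 13.7% from strength). The 1 beside Fbp1 is given above. The start of Cubn, the endocytic receptor cubilin, was covered by a 570 bp peak (chromosome 2, 13491609 to 13492178, -log10 p 4.53), with the nearest cKO peak 51645 bp away. A peak lay 751 bp outside the start of Slc3a1, a subunit of the cystine transporter (5.04), another inside Keg1 at its 3' end (5.01), and another over the start of Pck1, which encodes the gluconeogenic enzyme PEPCK (4.76). At Cubn, Slc3a1 and Keg1 it was the only end peak. Loop of Henle genes had 4 of 24 (16.7%, against 10.6%), both at Tspan8 and 1 each at Bsnd, which encodes the chloride channel subunit barttin (4.78), and at the claudin gene Cldn10 (4.05). The nearest gene end to the peak at Cldn10 was the 3' end of the neighbouring gene Dzip1, 134 bp away. In the distal and connecting tubule list 1 of 14 was unmatched, over the start of the epithelial sodium channel gene Scnn1b (chromosome 7, 121864725 to 121865483, 5.01), its only end peak.

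Podocyte genes had 7 of 43 (16.3%, 6.81 to 30.7%, against 11.7% from strength). Foxc2 (4.96), Cdkn1c (4.53), Wt1 (4.53), the matrix gene Npnt (4.22) and the ephrin gene Efnb2 (3.71) each kept another end peak. At Robo2, a Slit receptor gene, the peak over the start (chromosome 16, 75447034 to 75447585, 4.94) was the only end peak, and the nearest cKO peak lay 144959 bp away. When at least 50% of a control peak had to be covered by a cKO peak, 14 of the 43 podocyte peaks counted as unmatched (32.6%, 19.1 to 48.5%), above the 12.9% that strength gave. Only the cKO peak with most overlap was counted, so a wide control peak split among several cKO peaks can fail this rule. The percentage from strength was not matched on width, and the part of width was not tested. When the control list was cut to its 61210 most significant peaks, it was 2 of 36 (5.56%, against 3.99%).

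Early nephron genes had 2 of 33 unmatched (6.06%, against 8.84%), at 3' ends of Wnt4 (chromosome 4, 137300134 to 137301051, 5.44), 633 bp beyond the gene and 234 bp from a cKO peak, and inside Pax8 (4.53). Progenitor genes had 3 of 32 (9.38%, against 11.8%), 2 at Tmem100 (5.04 and 3.98) and 1 at the transcription factor gene Sall1 (4.02). Interstitial genes had 3 of 26 (11.5%, against 6.52%), at Tcf4 (5.37), the retinoic acid synthesis gene Aldh1a2 (5.35) and the matrix gene Lum (4.44). Collecting duct genes had 4 of 24 (16.7%, against 9.45%), at the keratin gene Krt19 (5.67), Gata2 (4.91) and 2 at the proton pump gene Atp6v1b1 (4.41 and 4.19).

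Among lists of other cell types, endothelial genes had 1 of 27 where strength gave 2.34, at Egfl7 (3.75), and smooth muscle and pericyte genes 1 of 19 where it gave 1.63, at Cspg4 (5.37). Neural genes had 2 of 17 (3.58 from strength) and erythroid genes 0 of 5 (0.00475). For the pathway lists strength gave 2.10 unmatched peaks at BAF complex genes, 2.02 at Notch, 2.27 at Wnt, 1.95 at TGF-beta and matrix, 1.06 at tight junction, 0.310 at cell cycle, 0.0788 at p53 target and 0.710 at housekeeping genes. BAF complex genes had 2 of 36, inside Dpf3 (4.47) and Smarcd1 (3.79) at their 3' ends, and none at Smarca4. Notch genes had 2 of 33, at Numb (5.08) and Heyl (4.02). The peak at Numb covered the 3' end of the neighbouring gene Papln. Wnt signalling genes had 1 of 44, at Ctnnb1, which encodes beta-catenin (4.29). TGF-beta and matrix genes had 1 of 26, at Smad3 (4.68), and tight junction and adhesion genes 1 of 20, at Cldn8 (3.79). Cell cycle genes had 1 of 20, at the 3' end of Cdk1 (5.24), p53 targets 0 of 15 and housekeeping genes 0 of 22. Interferon response genes had 3 of 16 (18.8%, against 12.8%), at Oas1a (4.99), Ifit3 (4.78) and Ifit1 (4.41), each the only end peak of its gene. The peak at Ifit1 covered the start of the neighbouring gene Ifit1bl2.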

How the data were processed

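ATAC-seq peak lists of 1 control and 1 cKO library were used. The submitters' processing notes name mm10 and the tools Genrich, Trim Galore and SAMtools. Settings, duplicate handling, any shift of read ends and the aligner: not given in the sources used here. In the deposited narrowPeak lists, the authors' score is capped at 1000 and was not used. The deposited signal is the area under the caller's curve. The authors' -log10 p and -log10 q come from the caller, and the lowest -log10 q was 1.42 for control and 1.35 for cKO. They were used to rank control peaks and never compared between lists.

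Gene ends were taken from RefSeq on GRCm38.p6, with 21631 protein-coding genes on chromosomes 1 to 19 and X. Strand and starts came from the RefSeq promoter table, which held 17274 of them and none on chromosome 18, so strand is unknown for the rest. It holds no exons, so exonic and intronic positions are not given. Coordinates are 1-based. Found peaks were weighted to the numbers of unmatched peaks per strength class, and intervals of differences use the normal approximation. The functions were tested on simulated data. Python 3.11.15, numpy 2.4.6, pandas 2.3.3 and scipy 1.17.1 were used.

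The regions, the 22 lists and the measures were chosen with earlier results of these data known. Genes were named by rule: the 25 strongest unmatched peaks, the 10 strongest over a start, the 5 genes with most, at most 4 per list, and those at the thresholds. Other podocyte and proximal tubule genes, Gm3417 and the immune markers were named after their values were seen. Some list genes are not reported here by name. Of 443 list genes, 440 were in the table.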

Additional observations from a re-analysis of the deposited data

How the results depend on the processing

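No paired analysis was possible because each genotype has 1 library. The unmatched share of gene-end peaks, 5.89%, was 7.12% with 50% of the control peak covered, 4.36% and 8.60% with windows of 500 and 2000 bp, 2.27% for peaks that cover an end, 3.48% at starts alone and 3.01% when the control list was cut to its 61210 most significant peaks (equal lengths), which removes weak control peaks by construction. The difference in the share at 3' ends, 14.3 points, was 47.2 without matching on strength and 19.6 with equal list lengths. The deficit of covered starts, -8.97 points, was -2.85 with strength by area, -60.2 without matching and -15.2 with equal lengths. The CpG difference, -0.108, was -0.416 without matching. Genes with an unmatched peak, 964, were 1693 with a window of 2000 bp and 475 with equal lengths. Genes with all end peaks unmatched, 343, were 178, and unmatched peaks at list genes, 47, were 22 with equal lengths. Of the counts of single lists under 50% cover and equal lengths, 16 moved by over 1.5 times and 28 did not. The differences at 3' ends, at covered starts and in CpG ratio kept their sign under every setting run. Without matching, the ratio of gaps to the nearest control peak reversed from 1.57 to 0.688 and that of gene lengths from 1.21 to 0.968, and the TATA box, CCAAT box and NRF1 motif differences changed sign. The AP-1 difference, 1.05 points, changed sign with strength by area (-0.798), with width classes (-1.75) and with p and area together (-1.32), and the E-box difference, -2.45, with strength by area (0.169). The difference in covering a gene end, -7.93, changed sign with strength by area (0.352), as did that in log2 width, from -0.353 to 0.105. Matching by fiftieths of -log10 p and by classes of p and area together was chosen after the data were seen. With a -log10 q of 2 or more required in both lists the unmatched share was 6.17%. Strength classes 1 to 5 held 91.3% of the unmatched peaks, and no read counts were available to compare them directly. Nearness to the calling threshold was not tested. Leaving out a replicate was not possible.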

Other observations

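Gene families were also read by symbol, chosen after their values were seen. At genes whose symbols begin with Serpin, the serine protease inhibitors, 5 of 14 gene-end control peaks were unmatched (35.7%, 12.8 to 64.9%, against 11.6% from strength), at Serpina11, Serpina3i, Serpina3n, Serpina9 and Serpinf1. The peaks of Serpina3i and Serpina3n lay near each other on chromosome 12 (from 104262542 and from 104406378). The interval treats peaks as independent, so it may be too narrow for such neighbours. The intervals of the other families read held the percentage from strength. At solute carrier genes it was 15 of 363 (4.13%, against 5.81%), at keratin genes 5 of 26 (19.2%, against 16.0%) and at zinc finger genes of the Zfp series 12 of 376 (3.19%, against 2.46%). Of 20 chromosomes, the intervals of 19 held the percentage given by strength. The exception, singled out after its values were seen, was chromosome X, with 12 of 442 gene-end peaks unmatched (2.71%, 1.41 to 4.69%, against 4.75% from strength).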
